A study of Rattus norvegicus with 46 samples.

Results

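Stearate and palmitate are straight, saturated long-chain fatty acids that differ by chain length alone: stearate has 18 carbons and palmitate 16. Their effects on gene expression were compared in isolated heart muscle cells of wild-type Wistar rats (adult males), cultured in serum-free medium on laminin and exposed for 24 h to 0.4 mM of 1 fatty acid bound to defatted bovine serum albumin (BSA, 1% in the medium). The groups were 8 arrays of stearate-treated cells, 8 arrays of palmitate-treated cells and, for reference, 7 arrays of control cells given 1% BSA alone, out of 46 arrays in the series. All arrays labelled with these treatments were used. A single dose and a single time were tested, so dose and time courses of the acids cannot be compared. The labels do not say which arrays came from the same cell preparation. The p-values therefore cover only the spread among these arrays, part of which may be technical.

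Heart muscle draws most of its energy from fatty acids, which enter the mitochondria for beta-oxidation and also act as ligands of the peroxisome proliferator-activated receptors (PPARs), nuclear receptors that switch on genes of fat use. Long saturated acids that are not oxidised are built into triglycerides, phospholipids and ceramides. In many cell types an excess of saturated acyl chains disturbs the membrane of the endoplasmic reticulum (ER) and sets off the unfolded protein response. Its sensors raise chaperones and protein-degradation genes through ATF6 and XBP1, and amino acid supply genes through PERK and the transcription factor ATF4.

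Promoters of 4 genes are shown first, 2 of the ER arm and 2 of the ATF4 arm of this response. They were picked after the test, as the members past it on the ER stress and ATF4 lists whose windows held a match. The strength of their results played no part in the choice. Each is the RefSeq window of assembly GRCr8 of 300 bases around the annotated start of the gene, 5′ to 3′ on the strand of the gene. Capitals mark the match to the ER stress element, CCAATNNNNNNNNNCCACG, in Hspa5 (chr3:38452766-38453065, plus strand) and Creld2 (chr7:121789134-121789433, plus strand). In Trib3 (chr3:161275484-161275783, minus strand) and Slc7a1 (chr12:11664238-11664537, plus strand) they mark the match to TGATGNAA, the C/EBP-ATF response element to which ATF4 binds. The matches in Creld2 and Trib3 lie on the opposite strand and so appear as the reverse complement.
Hspa5: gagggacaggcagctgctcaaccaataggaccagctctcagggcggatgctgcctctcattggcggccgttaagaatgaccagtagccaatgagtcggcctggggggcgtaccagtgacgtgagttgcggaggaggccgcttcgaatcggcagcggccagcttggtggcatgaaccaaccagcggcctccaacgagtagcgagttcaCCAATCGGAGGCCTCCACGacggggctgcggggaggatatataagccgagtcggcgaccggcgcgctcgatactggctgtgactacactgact
Creld2: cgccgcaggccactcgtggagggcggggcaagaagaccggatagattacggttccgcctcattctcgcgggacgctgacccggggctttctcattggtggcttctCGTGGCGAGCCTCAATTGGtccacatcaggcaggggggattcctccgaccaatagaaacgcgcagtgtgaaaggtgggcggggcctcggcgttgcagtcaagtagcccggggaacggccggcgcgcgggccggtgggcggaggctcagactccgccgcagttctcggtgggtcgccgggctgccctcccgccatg
Trib3: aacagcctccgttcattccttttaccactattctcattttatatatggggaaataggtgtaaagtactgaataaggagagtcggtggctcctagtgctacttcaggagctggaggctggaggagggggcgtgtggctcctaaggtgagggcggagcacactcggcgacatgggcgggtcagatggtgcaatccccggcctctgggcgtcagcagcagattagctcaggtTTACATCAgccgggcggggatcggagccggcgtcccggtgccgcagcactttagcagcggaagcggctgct
Slc7a1: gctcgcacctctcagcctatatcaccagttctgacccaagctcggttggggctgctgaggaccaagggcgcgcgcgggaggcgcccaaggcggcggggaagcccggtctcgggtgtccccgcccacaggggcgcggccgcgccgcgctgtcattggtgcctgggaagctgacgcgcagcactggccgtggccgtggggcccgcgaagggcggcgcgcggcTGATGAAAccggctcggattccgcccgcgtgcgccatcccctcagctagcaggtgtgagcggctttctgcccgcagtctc
Both strands were searched. Of 33469 rat promoter windows, 22 (0.0657%) held the ER stress element, among them 7 of the 18 windows available for tested members of the ER stress list described below (Dnajc3, Canx, Hspa5, Xbp1, Hsp90b1, Calr and Creld2). The shorter ATF4 element was in 1332 windows (3.98%) and in 4 of the 17 windows of the ATF4 list (Cars1, Nupr1, Trib3 and Slc7a1). The PPAR direct repeat, AGGTCA repeated after 1 base of any kind, was in 18 windows (0.0538%) and in 0 of the 27 windows of the PPAR list. Of the genes past the test that have a window, 2 of 4 on the ER stress list and 2 of 6 on the ATF4 list held the element, and these are the 4 shown. The windows of Syvn1, Dnajb11, Asns and Gdf15 held no match. Among the other named genes, Zfand2a, which did not pass the test, held the ER stress element. Mars1, lower under stearate, and Echs1, higher under it, held the ATF4 element. A match is a description of letters and not evidence of binding. A window without a match does not show that the gene lacks the element, on the PPAR list or on the others. Only exact matches to the letters given were counted, and only within these windows.

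Signal quality differed between arrays and is given before the results, and its part in them was not tested. Between 3090 and 7220 of 22517 probes were detected in stearate arrays, against 5216 to 7011 in palmitate arrays. The mean was 5138 ± 1492 under stearate and 5844 ± 694.9 under palmitate (SD, n = 8 each), which did not pass a two-sided exact permutation test (p = 0.2437, or 0.1094 paired by number). The low values sat in the stearate arrays numbered 5 to 8, with 3090 to 4632 detected probes, against 5216 to 5970 in the palmitate arrays of those numbers. In the arrays numbered 1 to 4 the counts were 5686 to 7220 under stearate and 5415 to 7011 under palmitate. A second measure, the 95th percentile of the raw signal over its median, averaged 9.296 ± 4.646 under stearate and 10.78 ± 3.602 under palmitate (exact permutation p = 0.4822). In numbers 5 to 8 it was 4.792 to 6.677 under stearate and 8.115 to 10.82 under palmitate. The array labelled stearate 4 stood apart from the other stearate arrays in several genes, and some differences between the acids are also given without it. All values of stearate against control include this array and were not computed without it.

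**Figure D1:**
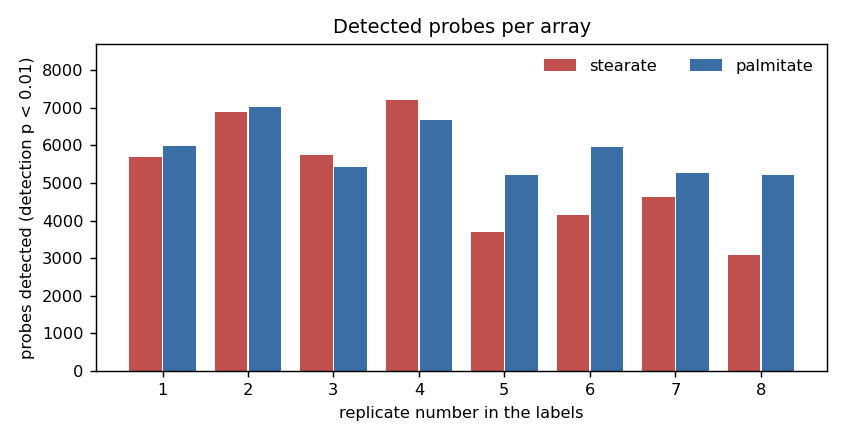
Number of probes detected (detection p under 0.01, vertical axis) in each stearate (red) and palmitate (blue) array, by the replicate number in the labels (horizontal axis). Under stearate, the arrays numbered 5 to 8 had 3090 to 4632 detected probes, fewer than the palmitate arrays of the same numbers.

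Across 7182 genes, 300 (4.18%) differed between stearate and palmitate in limma's moderated test at a Benjamini-Hochberg adjusted p under 0.05. Of these, 221 (3.08%) were lower and 79 (1.1%) were higher under stearate. A difference of 2-fold or more was reached by 45 of the lower genes and 12 of the higher genes. The median of all genes was -0.05 on the log2 scale. When arrays were aligned on their medians in place of their whole distributions, that median moved to 0.08 and the calls split into 150 lower and 131 higher, with 184 of the 281 shared with the 300. The excess of lower over higher calls therefore depended on the scaling. Under unadjusted p-values below 0.05, 1437 genes differed.

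The labels do not say whether replicate numbers pair the arrays. Deviations from the group means correlated at 0.137 to 0.753 between stearate and palmitate arrays of the same number. Of the 8 stearate arrays, 3 correlated best with the palmitate array of their own number. In the other direction, the palmitate arrays numbered 2, 3, 5, 6 and 7 correlated best with the stearate array of their own number. The median correlation of a stearate array with palmitate arrays of other numbers was -0.278 to 0.025. With the number as a block, 1315 genes (18.3%) passed, 763 lower (10.6%) and 552 higher (7.69%), and 299 of the 300 were among them. In 212 of the 300, all 8 pairs pointed the same way. Over all genes, 479 (6.67%) were lower and 356 (4.96%) higher in every pair. The values of the groups did not overlap at all in 46 genes (0.64%), 33 lower and 13 higher, and 43 of those passed the test.

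The size of the differences varied with the array numbers, here described over the 300 genes that all 16 arrays had selected. The lower genes had a median log2 difference of -0.6 in numbers 1 to 4 and -1.07 in numbers 5 to 8, and the higher genes had 0.65 and 0.71 in these sets. Tested alone by limma, numbers 1 to 4 gave 0 genes past the threshold (551 at an unadjusted p under 0.05, and 2 past the threshold with the block), while numbers 5 to 8 gave 999. The part of the lower number of detected probes in that larger difference was not tested.

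For most genes the difference was bounded within 2-fold. The 95% interval of the log2 difference lay within 1 of 0, that is within 2-fold, for 5504 genes (76.6%), and its median reach was 0.461 to either side. A gene that missed the threshold is thus shown to differ by less than 2-fold only where its own interval says so. Of the 300 called genes, 45 lower and 12 higher ones reached 2-fold. An interval within 2-fold therefore leaves room for differences of the size seen in most called genes.

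**Figure D2:**
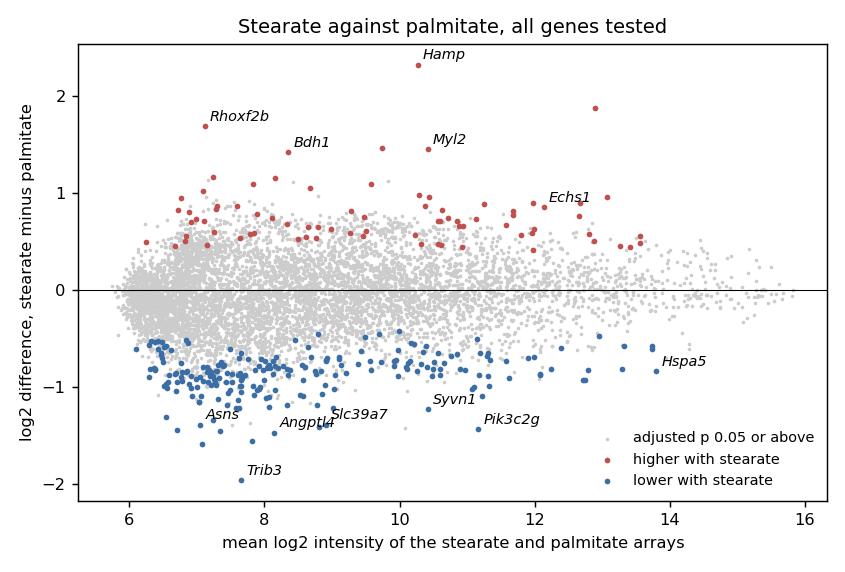
Log2 difference, stearate minus palmitate (vertical axis), against the mean log2 intensity of both groups (horizontal axis), 1 point per gene tested. Red points are the 79 genes that were higher and blue points the 221 that were lower under stearate. Hamp lies highest among the labelled genes and Trib3 lowest.

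Set against BSA control, the genes that differed between the acids fell into several patterns. Of the 221 genes lower under stearate than under palmitate, 66 were called higher in palmitate-treated than in control cells and 76 were called lower in stearate-treated than in control cells. No gene was both, and 79 were neither. Of the 79 genes higher under stearate, 33 were called lower in palmitate-treated than in control cells and 17 were called higher in stearate-treated than in control cells. For reading these counts, 4.19% of all genes were higher and 8.91% lower in stearate-treated than in control cells, and 5.3% were higher and 5.76% lower in palmitate-treated than in control cells. Both sets of calls share the control arrays and one group each with the comparison of the acids, so they are set side by side and not tested.

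Among ER stress genes, the members that passed the test were lower under stearate. Of 29 genes on the list, 21 were tested. All 21 had a negative difference, with a median of -0.73, and 6 fell by the gene test while 0 rose, against 3.08% lower among all genes. With the block 16 fell, against 10.6% of all genes. Against control, 4 members were called higher under stearate and 14 under palmitate, beside 4.19% and 5.3% of all genes. The median log2 difference from control was 0.21 under stearate and 0.88 under palmitate.

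Hspa5 encodes BiP, the main chaperone of the ER lumen and the regulator of the stress sensors. Its log2 intensity ran from 12.57 through a median of 13.45 to 13.73 in stearate arrays, from 13.72 through 14.34 to 14.57 in palmitate arrays and from 12.56 through 12.82 to 13.14 in control arrays. The stearate and palmitate values overlapped only at their ends, and stearate was the lower in 8 of 8 pairs. The log2 difference was -0.84 ± 0.19 (SE, n = 8 and 8, limma adjusted p = 0.00905), a 1.78-fold lower level. Palmitate stood 1.36 above control on the log2 scale (adjusted p = 7.78e-06 by limma) and stearate 0.53 (adjusted p = 0.0746). The lowest stearate value, 12.57, was that of stearate 4 and lay within the control range. Without that array the difference between the acids was -0.72 (limma adjusted p = 0.0199). Under median scaling the adjusted p of Hspa5 was 0.0524, at a difference of -0.71.

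Syvn1 encodes HRD1, the ubiquitin ligase that tags misfolded proteins pulled out of the ER for degradation. Its values were 9.21, 9.89 and 10.08 (lowest, median and highest log2 intensity) under stearate, 10.36, 11.11 and 11.56 under palmitate and 9.81, 10.13 and 10.32 under control. No stearate array reached any palmitate array, and the stearate and control ranges overlapped. Syvn1 was 2.34-fold lower under stearate than under palmitate, at -1.23 ± 0.18 (limma adjusted p = 2.47e-05).

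Creld2, a disulfide isomerase-like protein of the ER that cells secrete under stress, was also separate in the groups, at 6.89 to 7.76 under stearate, 8.15 to 9.79 under palmitate and 6.68 to 7.84 under control. Its difference was -1.10 ± 0.28 (limma adjusted p = 0.0162), and without the array palmitate 7 it was -0.93 with an adjusted p of 0.0548. Dnajb11, a co-chaperone that works with BiP, was 5.97 to 7.76 under stearate and 7.70 to 8.55 under palmitate, a difference of -1.06 ± 0.26 (limma adjusted p = 0.0137). For Dnajb11 the difference was -0.28 in numbers 1 to 4 and -1.85 in numbers 5 to 8, and 4 of 8 stearate arrays detected it, against 8 of 8 palmitate arrays. The other members past the test, looked up after the counts were seen, were the disulfide isomerases Pdia3 at -0.82 and Pdia6 at -0.65.

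The size of the ER stress difference varied with the array numbers. The median over the 21 genes was -0.50 in numbers 1 to 4, with 0 members past the test, and -0.91 in numbers 5 to 8, with 15 past it. Over all 7182 genes the medians were 0.0 and -0.12, and 0 and 999 genes passed, 544 of the 999 lower. Leaving out any 1 array gave 4 to 8 members past the test. The lowest count, 4, came without palmitate 7, and without stearate 4 it was 6. Over all 7182 genes 124 were lower without palmitate 7 and 275 without stearate 4, beside 221 with every array.

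In the amino acid response under ATF4 the members that passed were lower as well. Of 30 listed genes 18 were tested, 17 of them with a negative difference, and the median was -0.81. By the gene test 6 fell and 0 rose, against 3.08% lower among all genes, and 11 fell with the block, against 10.6%. Against control, 4 members were called higher and 1 lower under stearate, beside 4.19% and 8.91% of all genes. Under palmitate 11 were called higher and 0 lower, beside 5.3% and 5.76%.

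Trib3 encodes a pseudokinase that binds AKT and ATF4 and is strongly induced in the late phase of the response. Its log2 intensity in stearate arrays 1 to 8 was 7.60, 6.92, 7.08, 6.0, 7.48, 6.16, 5.98 and 6.20, and in palmitate arrays 1 to 8 it was 8.65, 7.91, 8.59, 8.71, 8.98, 9.08, 8.52 and 8.66. Every palmitate array lay above every stearate array, and 3 stearate arrays detected the probe, against 8 palmitate arrays. The control arrays spanned 5.98 to 8.10. Trib3 had the largest fall among genes with a symbol, 3.89-fold, at -1.96 ± 0.29 (limma adjusted p = 2.47e-05). The difference was -1.57 in numbers 1 to 4 and -2.35 in numbers 5 to 8. Palmitate stood 1.55 above control (limma adjusted p = 4.36e-04), and stearate did not pass against control, at -0.41 (adjusted p = 0.397).

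Asns encodes asparagine synthetase, a textbook target of ATF4. It ran from 5.72 through 5.97 to 7.48 under stearate, from 7.07 through 7.66 to 8.59 under palmitate and from 5.56 through 6.10 to 6.77 under control. The 3 highest stearate values, 7.0 to 7.48, were those of arrays 1 to 3, and only that of array 1 reached the palmitate range. Arrays 4 to 8 lay at 5.72 to 5.97 and did not detect the gene. The difference was -1.39 ± 0.25 (limma adjusted p = 5.10e-04), and it was -0.70 in numbers 1 to 4 and -2.08 in numbers 5 to 8.

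Slc7a1, the cationic amino acid transporter CAT-1, was 5.99 to 7.09 under stearate and 7.0 to 7.81 under palmitate, a difference of -1.01 ± 0.22 (limma adjusted p = 0.00489). It was nearly the same in numbers 1 to 4, at -1.0, and in numbers 5 to 8, at -1.03, but under median scaling it was -0.67 with an adjusted p of 0.103. Only 1 of 8 stearate arrays detected Slc7a1, against 7 of 8 palmitate arrays. Gdf15, a stress hormone of the TGF-beta family, was detected in every array of both groups and lay at 9.81 to 11.50 under stearate, 10.87 to 12 under palmitate and 8.56 to 10.21 under control. It was higher than control under stearate, by 0.99 (limma adjusted p = 0.024), and under palmitate, by 2.01 (adjusted p = 9.96e-06). Its difference between the acids, -1.02 ± 0.29 (limma adjusted p = 0.0349), missed the threshold without any of 10 arrays in turn, with adjusted p up to 0.0869 (without stearate 6). Without stearate 4, which held the lowest stearate value, 9.81, it was -0.91 (limma adjusted p = 0.062). Gdf15 was also the member past the test among 17 fetal and hypertrophic genes, beside 3.08% lower among all genes. The median of that list was 0.07, and with the block 2 of its members were lower and 3 higher, against 10.6% and 7.69% of all genes. The other ATF4 list members past the test were Slc7a5 at -0.95 and Slc3a2 at -0.91, looked up after the counts were seen. They pair into the transporter of large neutral amino acids.

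As for the ER stress list, the median of the ATF4 list was -0.42 in numbers 1 to 4, with 0 members past the test, and -0.94 in numbers 5 to 8, with 10 past it. Over all 7182 genes 0 passed in numbers 1 to 4 and 999 in numbers 5 to 8, of which 544 were lower. Leaving out 1 array at a time gave 4 to 8 members past the test, and 5 without stearate 4. The lowest count came without any of stearate 5, 7 and 8 and palmitate 6, 7 and 8. Over all 7182 genes, leaving out 1 array gave 124 to 275 lower calls. Cytosolic aminoacyl-tRNA synthetases, which charge tRNAs and include ATF4 targets, had a median of -0.47 over 16 genes, of which 14 were negative. Mars1, the methionine enzyme, was the member past the test, beside 3.08% lower among all genes. Its difference was -0.58 ± 0.15 (limma adjusted p = 0.0192). With the block 8 members fell, against 10.6% of all genes.

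**Figure D3:**
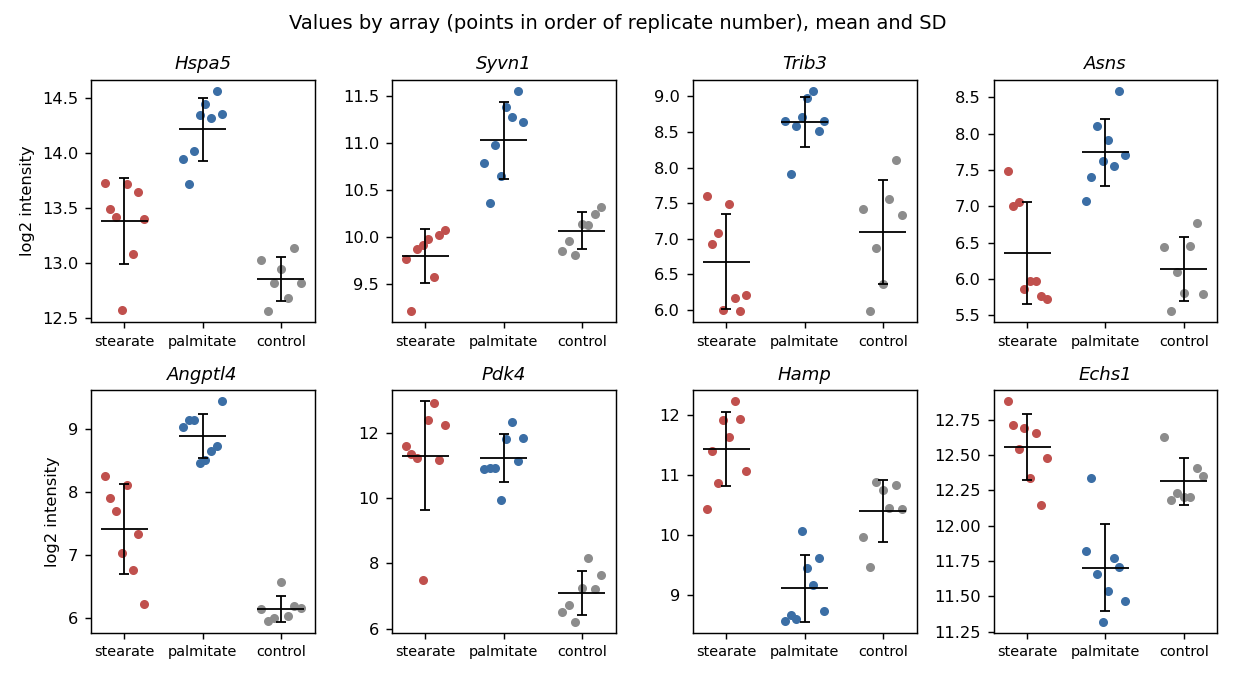
Log2 intensity (vertical axes) of 8 genes in each array of the stearate (red), palmitate (blue) and control (grey) groups, with mean and SD. Hspa5, Syvn1, Trib3, Asns and Angptl4 sit lower under stearate than under palmitate, Hamp and Echs1 sit higher, and Pdk4 has 1 stearate array at 7.48, far below the other 7.

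Many PPAR target genes were higher than control under both acids. Of 37 tested members, 16 were called higher than control under stearate and 21 under palmitate, against 4.19% and 5.3% of all genes. Between the acids the list had a median of -0.08, 2 members were lower and 0 higher, beside 3.08% and 1.1% of all genes, and 25 of the 37 intervals lay within 2-fold. With the block 8 were lower and 4 higher, against 10.6% and 7.69% of all genes.

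Angptl4, a secreted inhibitor of lipoprotein lipase and a sensitive PPAR target, was among the members that differed. Stearate arrays held 6.21, 7.51 and 8.25 (lowest, median and highest log2 intensity), palmitate arrays 8.46, 8.88 and 9.43 and control arrays 5.94, 6.14 and 6.56. The acids did not overlap, and the stearate median lay between those of palmitate and control. Angptl4 was 2.78-fold lower under stearate than under palmitate, at -1.47 ± 0.24 (limma adjusted p = 1.06e-04). Only 4 of 8 stearate arrays detected Angptl4, against 8 of 8 palmitate arrays, so its stearate level lies partly below detection. As 0 of 7 control arrays detected it, the folds against control are lower bounds: at least 1.42-fold higher under stearate (limma adjusted p = 4.73e-04) and at least 3.94-fold higher under palmitate (adjusted p = 6.67e-11). Angptl4 was also the member past the test among 12 genes of fatty acid uptake and activation, beside 3.08% lower among all genes. The median of that list was -0.30. With the block 4 of its members were lower and 0 higher, against 10.6% and 7.69% of all genes. A second, dimmer Angptl4 probe differed by -0.09 between the acids, so the probes of the gene disagreed in size.

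Pdk4, the kinase that shuts pyruvate out of oxidation when fat is burned, was 7.48, 11.49 and 12.91 (lowest, median and highest) under stearate, 9.94, 11.05 and 12.33 under palmitate and 6.21, 7.21 and 8.16 under control. It stood far above control under both acids, by 4.20 under stearate and by 4.13 under palmitate. The difference between the acids was 0.08, with a 95% interval of -0.82 to 0.97 (limma adjusted p = 0.956). Without the array stearate 4, whose value of 7.48 lies within the control range, the difference was 0.62 (adjusted p = 0.255), and stearate was the higher in 7 of 8 pairs.

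Plin2, which coats lipid droplets, gave 8.79, 11.73 and 12.62 under stearate, 10.05, 11.52 and 13 under palmitate and 8.32, 8.51 and 9.67 under control. Its difference was -0.00 with an interval of -0.85 to 0.84 (limma adjusted p = 0.997). Its direction turned with several settings, and without stearate 4 it was 0.40 (adjusted p = 0.556).

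Of the other fatty acid genes followed in each group, the thioesterase Acot1 was 5.89 to 9.54 under stearate, 7.86 to 10.46 under palmitate and 5.53 to 6.21 under control. It was lower under stearate in 8 of 8 pairs, at -0.95, and passed with the block (limma adjusted p = 0.00357) but not without it (0.16). The lowest stearate value, 5.89, was that of stearate 4, and without that array the difference was -0.55 (adjusted p = 0.307). Acot2, its mitochondrial relative, was -0.71 (adjusted p = 0.0963, and 0.0447 with the block). Cpt1a, the gatekeeper of mitochondrial fatty acid entry, was -0.26 with an interval of -0.96 to 0.44. The mitochondrial carrier Ucp3 was 0.62 (adjusted p = 0.177, and 0.0285 with the block), but 1 of 8 stearate and 2 of 8 palmitate arrays detected it. Its difference was 0.21 in numbers 1 to 4 and 1.04 in numbers 5 to 8.

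Of the enzymes that burn fatty acids inside the mitochondrion, 3 of 24 rose and 0 fell, against 1.1% higher among all genes, and the median of the list was 0.03. Echs1, the enoyl-CoA hydratase of short chains, was 12.15, 12.60 and 12.88 under stearate, 11.32, 11.69 and 12.34 under palmitate and 12.18, 12.23 and 12.63 under control. It was higher under stearate in 8 of 8 pairs, by 0.85 ± 0.16 (limma adjusted p = 0.00121). Palmitate lay below control, at -0.61 (limma adjusted p = 0.0129) and stearate did not pass, at 0.24 (adjusted p = 0.37). Hadh, which carries out the dehydrogenase step, differed by 0.74 ± 0.20 (limma adjusted p = 0.0228, and 0.06 at 0.66 without palmitate 4). Acad9, which also helps to assemble complex I, differed by 0.68 ± 0.21 (limma adjusted p = 0.0453) and missed the threshold without any of 12 arrays in turn. Phyh, the peroxisomal enzyme that starts the breakdown of branched chains, did not overlap between the acids, at 12.75 to 13.44 under stearate and 11.26 to 12.60 under palmitate. Its difference was 0.90 ± 0.23 (limma adjusted p = 0.0174, and 0.0533 at 0.76 without palmitate 4). It was the member past the test among 14 peroxisomal genes, whose median was -0.07. With the block 2 of the peroxisomal genes were higher and 1 lower, against 7.69% and 10.6% of all genes.

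Of 31 tested genes of the respiratory chain and ATP synthase, 4 rose by the gene test and 0 fell, against 1.1% higher among all genes. The difference had a positive sign in 30, with a median of 0.35. With the block 17 rose, against 7.69% of all genes. Ndufs7, an iron-sulfur subunit of complex I, was 10.88 to 11.67 under stearate, 10.29 to 11.10 under palmitate and 10.88 to 11.55 under control, a difference of 0.65 ± 0.15 (limma adjusted p = 0.00779). Palmitate lay below control, at -0.48 (adjusted p = 0.0391 by limma). The others were the complex I subunits Ndufv2 at 0.48 and Ndufa2 at 0.45 and the ATP synthase subunit Atp5f1c at 0.44. Each of these 3 was higher in 8 of 8 pairs, had an adjusted p of 0.0313 to 0.0457 and missed the threshold when any of 6 to 13 arrays was left out. The median of the list was 0.40 in numbers 1 to 4 and 0.29 in numbers 5 to 8, and 10 members rose under median scaling. The count fell to 1 without any of stearate 5, 6 and 8 and palmitate 4, and to 2 without stearate 4. Over all 7182 genes 131 rose under median scaling, in place of 79. Without stearate 5, 6 and 8 in turn 43, 45 and 49 rose, without palmitate 4 it was 39 and without stearate 4 it was 120.

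Pyruvate oxidation and the citric acid cycle ran alongside, with 26 of 29 genes positive and a median of 0.37. Here 2 rose and 1 fell, against 1.1% and 3.08% of all genes, and with the block 12 rose and 1 fell, against 7.69% and 10.6%. Sucla2, a subunit of succinyl-CoA ligase, was 11.77 to 12.31 under stearate and 10.70 to 11.85 under palmitate, a difference of 0.81 ± 0.16 (limma adjusted p = 0.00212). It was below control under palmitate, at -0.56 (limma adjusted p = 0.0223). Pdp2, a phosphatase that reactivates pyruvate dehydrogenase, went the other way, at -0.80 ± 0.23 (limma adjusted p = 0.0333, and 0.113 at -0.63 without palmitate 7).

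Bdh1, the mitochondrial enzyme that interconverts the ketone bodies, was among the 4 largest rises of named genes. Its values were 8.48, 9.11 and 9.42 under stearate, 6.67, 7.76 and 8.03 under palmitate and 7.64, 8.84 and 9.64 under control. The acids did not overlap, at 1.42 ± 0.24 (limma adjusted p = 1.93e-04), and it was palmitate that lay below control, at -1.04 (adjusted p = 0.00385).

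The cardiomyocyte label was checked against marker genes, and the markers bear on the mitochondrial lists. Of 19 cardiomyocyte markers 16 were tested, and 15 of them were detected in all stearate arrays and 16 in all palmitate arrays. Their summed linear intensity was 283100 to 398200 under stearate, 235300 to 317900 under palmitate and 288600 to 338800 under control. Of the 16, 15 were positive between the acids, with a median of 0.32 and 1 past the test (8 with the block). Sarcomere genes likewise had a median of 0.31 over 19 genes, of which 1 rose (7 rose and 1 fell with the block). Over all genes 1.1% rose, and with the block 7.69% rose and 10.6% fell. Under median scaling 5 of the 16 markers and 6 of the 19 sarcomere genes rose, beside 131 of all 7182 genes. The part of this shift in the mitochondrial differences was not tested. In bulk RNA, fewer cells of a type and less RNA per cell cannot be told apart.

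The marker past the test was Myl2, the regulatory light chain of ventricular myosin. It was 10.24, 11.08 and 12.40 under stearate, 8.99, 9.48 and 10.44 under palmitate and 9.59, 10.68 and 11.55 under control, a difference of 1.45 ± 0.30 (limma adjusted p = 0.00279). Markers of other cell types were mostly low. Of 14 fibroblast markers 6 were tested and 0 passed, and their sums were 2119 to 6862 under stearate, 2008 to 6202 under palmitate and 2684 to 9177 under control. Endothelial, smooth muscle and pericyte, leukocyte, adipocyte and red blood cell lists had 0 to 3 tested members each. Among them Cspg4, a pericyte marker, was lower under stearate at -1.10 (limma adjusted p = 0.0319). It missed the threshold without any of 6 arrays in turn (up to 0.0771, without stearate 8) and under median scaling, at -0.54 (0.273). It lay below control under both acids, and 2 stearate arrays detected it, against 8 palmitate arrays. Cd68, a macrophage marker, was called lower (limma adjusted p = 0.00629, and 0.243 under median scaling), but 0 stearate arrays and 4 palmitate arrays detected it, and no fold is given, since the palmitate mean lay below the lowest detected signals of the stearate arrays.

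**Figure D4:**
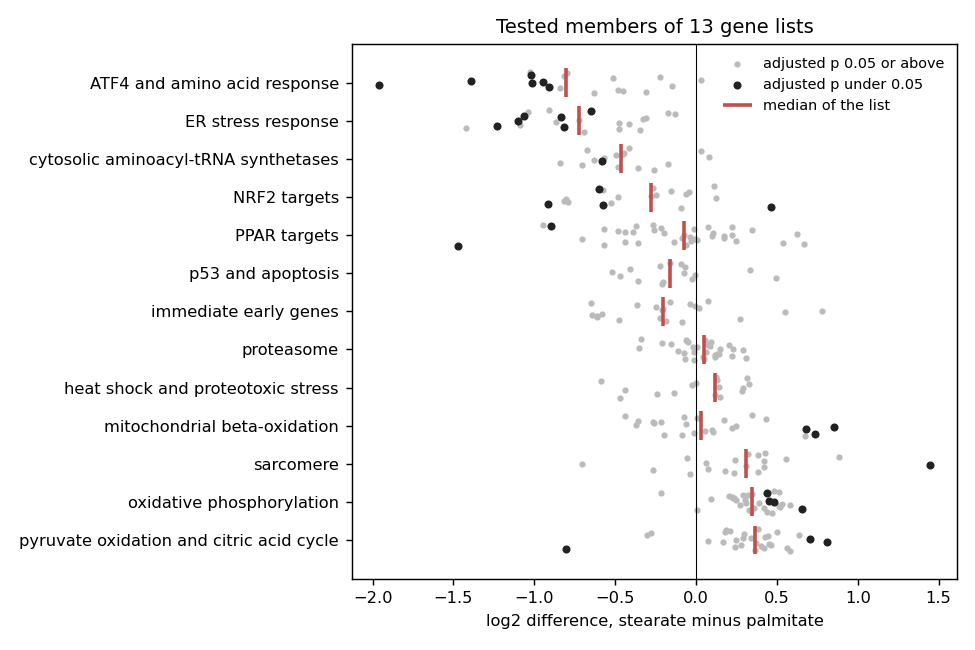
Log2 difference, stearate minus palmitate (horizontal axis), of the tested members of 13 gene lists (rows). Black points passed the test, grey points did not, and the red bar is the median of the list. The ATF4 and ER stress lists lie left of 0 with medians of -0.81 and -0.73, and the citric acid cycle and oxidative phosphorylation lists lie right of 0 with medians of 0.37 and 0.35.

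The largest rise of all named genes was in Hamp, which encodes hepcidin, the peptide that locks cellular iron export and is also made in the heart. The 8 stearate arrays held 10.42, 11.40, 10.86, 11.91, 11.62, 12.22, 11.92 and 11.06, and the palmitate arrays of the same numbers held 8.57, 8.66, 8.60, 10.06, 9.44, 9.17, 9.62 and 8.73. Control arrays ran from 9.47 through 10.44 to 10.87. The lowest stearate value was above the highest palmitate value, and the control values lay between the group medians. Hamp was 4.99-fold higher under stearate than under palmitate, at 2.32 ± 0.30 (limma adjusted p = 5.12e-06). It was above control under stearate, by 1.03 (limma adjusted p = 0.0211), and below it under palmitate, at -1.29 (adjusted p = 0.00423). The difference was 2.17 in numbers 1 to 4 and 2.46 in numbers 5 to 8.

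Among the other large rises, Rhoxf2b, a reproductive homeobox gene, was detected in 4 stearate and 2 palmitate arrays and differed by 1.69 ± 0.25 (limma adjusted p = 2.47e-05). It lay at the control level under stearate, at -0.00, and below it under palmitate, at -1.69. C3h11orf96 differed by 1.09 and rose above control under stearate, by 1.76 (limma adjusted p = 8.76e-06). Sat1, which acetylates polyamines for export, differed by 0.89 ± 0.23 (limma adjusted p = 0.018) and was above control under stearate, by 0.99. Bfsp1, a filament protein known from the lens, did not overlap between the acids, at 8.09 to 9.37 under stearate and 7.07 to 8.03 under palmitate.

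Ddit4l, an inhibitor of mTOR signalling, differed by 1.09 and Cnp, a cyclic nucleotide phosphodiesterase, by 1.04. Both were below control under palmitate, at -1.21 for Ddit4l and -1.28 for Cnp. Cnp missed the threshold without any of 7 arrays, with adjusted p up to 0.0908 (without palmitate 7). The rest of the 15 largest rises were Tcp1-ps1 (1.16), Steap2 (1.02), Dnajc7 (0.97), Sh3bgr (0.96) and Spink8 (0.96). Steap2 missed the threshold without any of 9 arrays, with adjusted p up to 0.118 (without stearate 8), and Tcp1-ps1 without stearate 8 alone (1.02, adjusted p = 0.0504).

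Most of the 15 largest falls were in genes on no list. Dnajc25, a J-domain protein, was 5.48 to 7.10 under stearate and 7.42 to 8.84 under palmitate, with no overlap, at -1.59 ± 0.30 (limma adjusted p = 0.00123). Only 2 of 8 stearate arrays detected Dnajc25, against 8 of 8 palmitate arrays. Slc39a7 (ZIP7), which releases zinc from the ER, was detected in every array of both groups at 7.79 to 8.85 under stearate, 8.71 to 10.33 under palmitate and 8.16 to 8.93 under control. It was 2.62-fold lower under stearate, at -1.39 ± 0.20 (limma adjusted p = 2.47e-05). Mogs, the glucosidase that trims the first glucose from N-glycans in the ER, differed by -1.34 ± 0.21 (limma adjusted p = 5.31e-05) and lay below control under stearate, at -0.99 (adjusted p = 0.00153). However, 1 stearate array detected Mogs, against 8 palmitate and 6 control arrays, so its stearate level was mostly below detection. Tmem39a, an ER membrane protein, was 7.20 to 8.78 under stearate, 8.70 to 10.52 under palmitate and 6.85 to 7.78 under control, a difference of -1.41 ± 0.29 (limma adjusted p = 0.00256).

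Other falls had different patterns against control. Pik3c2g, a class II phosphoinositide 3-kinase, was 8.12, 10.87 and 11.26 under stearate, 11.28, 11.88 and 12.33 under palmitate and 6.07, 7.84 and 8.99 under control. Both acids stood above control, stearate by 2.84 and palmitate by 4.28, and the difference between them was -1.44 ± 0.38 (limma adjusted p = 0.0192). Without stearate 4, the lowest array, it was -1.11 (adjusted p = 0.0458). Lime1, a lymphocyte adaptor protein, differed from control by -0.01 under palmitate and by -1.23 under stearate, and between the acids by -1.22 (limma adjusted p = 1.93e-04, with no overlap). Fbxl20 (-1.22) and Dmxl1 (-1.46) also lay below control under stearate, at -1.68 for Fbxl20 and -1.54 for Dmxl1. Under median scaling Dmxl1 was -1.11 between the acids, with an adjusted p of 0.0677. Of the stearate arrays 2 detected Lime1 and 1 detected Dmxl1, against 8 palmitate and 7 control arrays for each gene.

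Fndc3a (-1.56) lay above control under palmitate, by 1.04. Lipogenin was detected in 0 stearate and 8 palmitate arrays, so that it was at least 1.04-fold lower under stearate (limma adjusted p = 2.47e-05, and 0.0569 under median scaling). Tgfa, a ligand of the EGF receptor, was detected in 1 stearate and 4 palmitate arrays, and its difference of -1.31 missed the threshold without any of 11 arrays, with adjusted p up to 0.144 (without palmitate 4), and its adjusted p was 0.216 under median scaling. Igf1r, the receptor of insulin-like growth factor 1, was among 3 of 13 tested members of the insulin and PI3-kinase list that fell, against 3.08% of all genes, at -0.99 ± 0.24 (limma adjusted p = 0.00993). It lay below control under stearate, at -0.82 (adjusted p = 0.0198). The other 2, Pik3c2g and Trib3, were already named for the size of their falls.

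Of 19 NRF2 targets, the antioxidant genes, 3 fell and 1 rose, against 3.08% and 1.1% of all genes. The sign was negative in 16, with a median of -0.28. With the block 9 fell and 1 rose, against 10.6% and 7.69% of all genes. Under median scaling 1 fell and 1 rose, beside 150 and 131 of all 7182 genes. Mafg, the small MAF partner of NRF2, was 11.83 to 12.25 under stearate and 12.22 to 13.10 under palmitate, at -0.60 ± 0.16 (limma adjusted p = 0.0255, up to 0.0598 with 1 array left out). Gstp1, a glutathione transferase, differed by -0.57 (0.0409, up to 0.0929). Blvrb, biliverdin reductase B, rose by 0.46 (0.0284, up to 0.0764). Without palmitate 5 or palmitate 7, 0 members of the list fell. Over all 7182 genes 171 fell without palmitate 5 and 124 without palmitate 7.

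**Figure D5:**
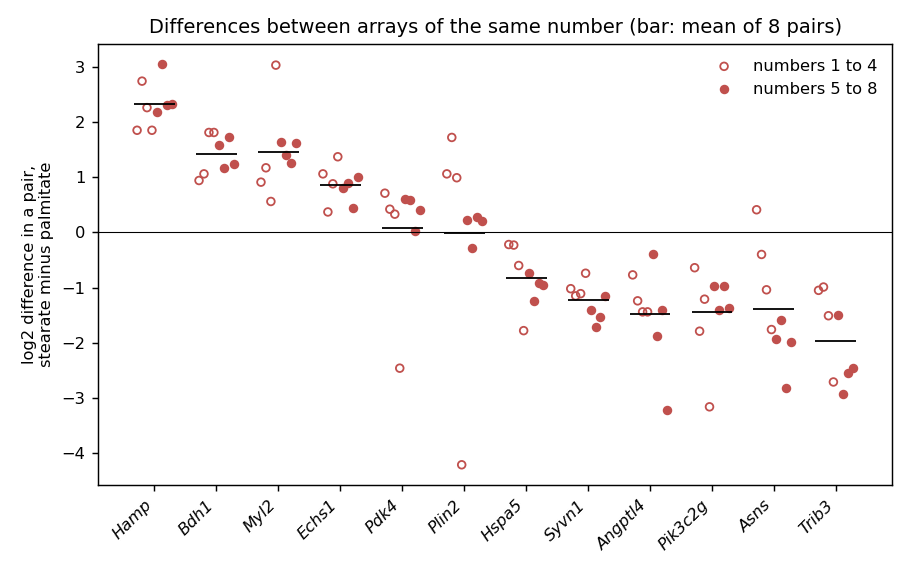
Log2 difference, stearate minus palmitate (vertical axis), within each of the 8 pairs of arrays with the same number, for 12 genes. Open points are numbers 1 to 4, filled points numbers 5 to 8, and the bar is the mean. Hamp, Bdh1, Myl2 and Echs1 lie above 0 in all 8 pairs and Hspa5, Syvn1, Angptl4, Pik3c2g and Trib3 below 0 in all 8, while in Pdk4 and Plin2 the pair numbered 4 lies far below the rest.

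In 15 lists no gene passed the limma test between the acids. Among the lists closest to lipid handling, triglyceride and lipid droplet genes had a median of -0.14 over 17 tested, with 11 intervals within 2-fold, and 2 were lower with the block. Desaturases, elongases and phospholipid remodelling genes had a median of 0.07 over 11, with 9 intervals within 2-fold, and 1 was lower and 2 were higher with the block. Ceramide and sphingolipid genes had -0.09 over 16, with 14 intervals within 2-fold, and cholesterol genes had -0.14 over 19, with 15 within it. In each of these 2 lists 1 gene was lower with the block. Over all genes the block gave 10.6% lower and 7.69% higher. Nearest the threshold in the triglyceride and remodelling lists were Plin3 at -0.88 (limma adjusted p = 0.121) and Lpcat3 at -0.53 (0.126). The probes of Lpcat3 differed in sign, from -0.53 to 0.47. In the ceramide and cholesterol lists they were Ormdl2 at -0.29 (0.201) and the sterol sensor partner Insig1 at -0.90 (0.321). The phospholipase Pla2g4a was 0.95 (adjusted p = 0.157, and 0.00968 with the block) and the ceramide synthase Cers2 -0.58 (adjusted p = 0.244).

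Among stress and inflammation lists, the heat shock list had a median of 0.12 over 16 genes and the p53 and apoptosis list -0.16 over 15. The immediate early list had -0.20 over 21, the NF-kB list 0.15 over 17 and the interferon list 0.08 over 15. With the block, 5 immediate early genes were lower and 1 higher, 1 NF-kB gene was lower and 3 higher, and 1 interferon gene was higher, while the heat shock and p53 lists stayed at 0. These block counts and those below stand beside 10.6% lower and 7.69% higher of all genes. The proteasome was the most tightly bounded, with a median of 0.05 and all 31 intervals within 2-fold, and stayed at 0 with the block. Contraction and calcium handling (median -0.05 over 18), hypoxia and glycolysis (-0.19 over 23), autophagy (-0.03 over 17), the circadian clock (-0.34 over 10) and the extracellular matrix (0.08 over 14) also had 0 called members. With the block, the contraction list had 2 lower and 2 higher, hypoxia 1 lower, autophagy 1 higher, the clock 2 lower and the matrix 2 lower and 1 higher. Without palmitate 4 the median of the hypoxia list was 0.02. Kcnd3, a potassium channel subunit, did not overlap between the acids, at 7.32 to 8.01 under stearate and 8.01 to 8.70 under palmitate. It passed with the block (limma adjusted p = 0.0112) but not without it (0.065, at -0.71). Casq2, the calcium store protein of the sarcoplasmic reticulum, was higher under stearate in 8 of 8 pairs, at 0.78 (adjusted p = 0.0602, and 0.0126 with the block).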

How the data were processed

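RNA was measured on single-colour Illumina rat BeadChips. The deposited table holds, per the file headers, the mean bead intensity of each probe and array, not normalized, with a detection p-value against the negative controls of the array, which the deposited values give in steps of 1 over 825. Per the submitters' processing notes, BeadStudio 3 produced it. A second deposited table of processed intensity values, whose method is not given in the sources used here, follows the raw signal on a linear scale after quantile normalization, as its values show, and served as an alternative. The number of arrays limits the precision.

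Intensities were background-corrected (limma 3.58.1 under R 4.3.3, normexp with negative controls inferred from the detection p-values, offset 16), then quantile normalized, then logged (log2). The filter kept 7312 probes that 7 or more arrays detected at p under 0.01, and the brightest probe stood for its gene. This left 7182 genes, of which 847 lack a proper symbol. Of 123 genes with several probes 9 were called, and in 1, Pex19, the probes differed in sign. Names came from probe accessions (6330), gene numbers (5190), symbols (4363) and synonyms (1404) matched to GRCr8. For 5033 further probes the symbol in the file was used, and 197 have no symbol. A limma model of 6 group means over 46 arrays, with an intensity trend, gave two-sided tests. Array measures were tested by exact permutation (scipy 1.17.1). Raw log2 signals of arrays of a group correlated at 0.893 to 0.992 (stearate) and 0.945 to 0.989 (palmitate), and no arrays were identical. The model was tested on simulated data with known changes.

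All 8 same-number correlations exceeded 0.1 (0.137 to 0.753). The numbers come from the labels. Of the 8 stearate arrays 3 correlated best with their own number, as did the palmitate arrays numbered 2, 3, 5, 6 and 7. Block results therefore stand beside the unblocked ones.

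The genes named were the 15 largest rises and falls past the threshold that were detected in at least 4 arrays of the higher group and had a symbol, up to 4 called members of each list (or the 2 smallest p-values where none passed) and 8 fatty acid response genes. Some genes that this rule picks are not reported here. The groups compared, members and lists were chosen with earlier results of these data known. A fold of a gene not detected in any array of its lower group is a lower bound against the lowest detected signal of each array. Of 95 named genes 80 had a RefSeq promoter window. Alternatives were the background correction, scaling, detection filter, groups in the fit, replicate block, array weights, signal range as a covariate, the deposited processed values and each array left out. The sets of numbers 1 to 4 and 5 to 8 were added after the data were seen.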

Additional observations from a re-analysis of the deposited data

Results flagged for a closer look

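In 23 of 194 groups of values tested, for the genes named and the measures per array, the highest or lowest array lay farther from its nearest neighbour than Dixon's 95% criterion allows. Chance alone flags about 1 in 20 groups. The array labelled stearate 4 accounted for 10 and the array labelled palmitate 4 for 6.

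Stearate 4 was low in Pdk4, at a log2 intensity of 7.48 against 11.18 to 12.91 in the other stearate arrays, and in Plin2, at 8.79 against 11.63 to 12.62. It was also low in Pik3c2g (8.12, others 10.16 to 11.26), Gadd45b (7.99, others 9.03 to 9.49) and Zfand2a (9.43, others 10.93 to 12.20). It was high in Lum (7.43, others 5.57 to 6.0), Cldn5 (9.23, others 6.32 to 7.41), Col4a1 (9.28, others 6.39 to 7.57), Cspg4 (8.16, others 5.81 to 6.68) and Cx3cl1 (11.67, others 9.83 to 10.62). Lum, Cldn5 and Cspg4 are on the fibroblast, endothelial and pericyte marker lists, and the part of such cells in the values of this array was not tested. Control arrays had Pdk4 at 6.21 to 8.16 and Plin2 at 8.32 to 9.67.

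Palmitate 4 was high in Plin3 (9.90, others 7.99 to 8.81), Per1 (7.60, others 6.18 to 6.84) and Ulk1 (9.49, others 7.99 to 8.59). It was low in Cx3cl1 (9.25, others 10.91 to 11.97), Dnaja1 (11.67, others 12.39 to 12.81) and Map1lc3a (10.81, others 11.28 to 11.68).

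Single values stood out in other arrays. Stearate 7 was high in Ankrd37 (10.62, others 6.95 to 8.33) and Nr4a3 (7.98, others 6.30 to 7.05), and stearate 8 was low in Sesn1 (7.5, others 8.52 to 9.31). Ankrd37, on the hypoxia list, was also high in palmitate 4 (12.36) and palmitate 7 (10.97), with the other palmitate arrays at 8.13 to 8.66. The criterion did not flag these values. Psmd2 was high in stearate 1 (10.54, others 9.78 to 10.09) and in palmitate 7 (11.25, others 10.05 to 10.55). Cpt1a was high in palmitate 2 (9.18, others 6.96 to 7.69) and Bdh1 was low in palmitate 3 (6.67, others 7.44 to 8.03).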

How the results depend on the processing

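The count of genes past the threshold, 300, was 146 with no detection filter (21914 genes tested), 192 with only stearate and palmitate in the fit and 863 with array weights. With the replicate block it was 1315 in the fit of stearate and palmitate, 815 in the fit of all groups and 1313 without the arrays numbered 4 and 7. It stayed within 1.5 times with no background correction (312), a stricter filter (308), median scaling (281), the signal range as a covariate (407), without the arrays numbered 4 and 7 (223) and with the authors' processed values (308). Leaving out 1 array gave 170 (without palmitate 7) to 395 (without stearate 4), and it moved by more than 1.5 times also without stearate 5 (181), 6 (179) and 8 (178). Among settings added after seeing the data, numbers 1 to 4 alone gave 0 (2 with the block), numbers 5 to 8 alone 999 (2185 with the block) and leaving out the stearate arrays numbered 4 to 8 gave 36. The count of genes bounded within 2-fold, 5504, was 20251 of 21914 with no detection filter, as more genes were tested.

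Of 54 named genes past the threshold, 35 stayed past it without each array in turn, 41 under median scaling and 54 with the block. Under median scaling Acad9 (0.0795), Steap2 (0.0969), Cnp (0.0524) and Gstp1 (0.128) missed it, by adjusted p, beside those given in the report. In 10 named genes, all short of the threshold, 38 values turned sign. Acot2 was 0.09 and Cpt1a 0.41 without the stearate arrays numbered 4 to 8, and Cpt1a was 0.04 under median scaling and 0.11 with array weights. Ddit4 was 0.08 in numbers 5 to 8, with and without the block. Dcn was 0.05 with array weights and 0.04 without stearate 4 to 8, and Lum was 0.35 under median scaling. Plin2 was 0.02 with no background correction and with the authors' values, 0.03 under median scaling, 0.47 with array weights, 0.65 without the arrays numbered 4 and 7 (0.65 with the block, adjusted p = 0.0344), 0.1 in numbers 5 to 8, with and without the block, and 0.56 without stearate 4 to 8. Without single arrays Plin2 was 0.4 (stearate 4), 0.2 (palmitate 4), 0.04 (palmitate 6) and 0.08 (palmitate 7). Over the arrays left out 1 at a time, Plin2 ran from -0.22 to 0.4 and Pdk4 from -0.15 to 0.62, with Pdk4 below 0 without stearate 5 (-0.08), 6 (-0.15) and 8 (-0.06) and palmitate 4 (-0.11). Pdk4 was also -0.07 with array weights, -0.08 with the signal range as a covariate and -0.25 in numbers 1 to 4, with and without the block. In numbers 1 to 4, with and without the block, Slc4a1 was -0.06 and Bst2 was -0.06, and without stearate 4 to 8 each was -0.05. Hbb was -0.33 with array weights and -0.13 without stearate 4 to 8. The cause of these turns was not tested.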
